A study of Saccharomyces cerevisiae with 13 samples.

Results

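The CCT chaperonin, also called TRiC, was followed through its 8 subunit genes TCP1, CCT2, CCT3, CCT4, CCT5, CCT6, CCT7 and CCT8 in Saccharomyces cerevisiae strains that each lack 1 tRNA gene. The subunits were chosen by gene symbol, and all 8 were found among the 5446 protein-coding genes that the arrays measured, each with 1 probe set. Their systematic names are YDR212W for TCP1, YIL142W for CCT2, YJL014W for CCT3, YDL143W for CCT4, YJR064W for CCT5, YDR188W for CCT6, YJL111W for CCT7 and YJL008C for CCT8. The arrays did not measure protein, so every value below is a transcript signal.

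CCT is a barrel of stacked rings in the cytosol, in which each ring holds the different subunits side by side. An unfolded protein binds inside the barrel, ATP closes a built-in lid, and the protein folds within the closed chamber. Actin and tubulin depend on it, as do several proteins with a beta-propeller fold, and each subunit is essential for growth of yeast. The yeast chaperones have been divided into those that are tied to protein synthesis, such as CCT, and those that heat and other stress induce. The question here was whether the CCT transcripts went with the heat shock chaperones or with the ribosome when a tRNA gene was lost.

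Transcripts were measured on Affymetrix yeast 2.0 arrays from cultures in the rich medium YPD at 30°C. There were 13 arrays, 3 for the wild type and 2 for each of the 5 deletion strains, and the labels call them biological replicates. All strains derive from the haploid Y5565, which is MATα, lacks LYP1, carries ura3Δ0 and leu2Δ0, and has HIS3 under the MFA1 promoter at CAN1 (can1Δ::MFA1pr-HIS3) and LEU2 under the MFα1 promoter at the MFα1 locus (mfα1Δ::MFα1pr-LEU2). In each deletion strain a hygromycin resistance cassette stands in place of 1 tRNA gene, and in the wild type the same marker sits upstream of the gene tL(CAA)L3. The strains ΔtL(GAG)G, ΔtR(CCU)J and ΔtM(CAU) are called SC (6 arrays) and the strains ΔtH(GUG)G1 and ΔtR(UCU)M2 are called MC (4 arrays), for the article's single-copy and multi-copy groups. In the article only tR(CCU) and tL(GAG) of the SC group are single-copy families. Its methionine strain lacks a copy of the initiator tRNA gene and joined the group for its improved growth under DTT. The label tM(CAU) does not name the copy that was deleted. Since no probe set measures a tRNA gene, the arrays give no check of the deletions.

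The 3 α-specific markers STE3, SAG1 and MF(ALPHA)2 had a log2 signal of 10.2 to 13.1 on every array, whereas the 6 a-specific markers lay between 3.87 and 7.08 and the 4 sporulation markers between 3.70 and 7.68. These markers also differed between strains, without any being called. The α-specific genes had a median log2 difference of -0.64 in ΔtR(CCU)J against wild type and of -0.52 between the SC and MC strains. In the latter all 3 had an unadjusted p under 0.05 (limma), beside 1617 of all 5446 genes. The a-specific genes had 0.62 in ΔtM(CAU) and 0.28 between the SC and MC strains. In ΔtM(CAU) 6 of 6 were positive, beside 64.3% of all genes, and 5 lay above all wild-type arrays, beside 13.6%. The part of these markers in the values below was not tested. The median gene had a signal of 491 to 626 by array, and the background, the level under which 95% of the S. pombe probe sets lay, was 12.9 to 21.5. The arrays did not group by strain alone. The first replicates of the SC strains were most like wild-type replicate 1, the first replicates of the MC strains were most like wild-type replicate 2, and all second replicates were most like wild-type replicate 3.

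All CCT subunits lay far above background. Over the 13 arrays the signal ran from 2659 to 3332 for TCP1, from 2323 to 3151 for CCT2, from 2553 to 3218 for CCT7 and from 3271 to 4276 for CCT8. With the deposited scaling, the standard deviation of the log2 signal over the 13 arrays ran from 0.067 for CCT5 to 0.148 for CCT6. With the arrays centred on their medians it ran from 0.089 for CCT8 to 0.187 for CCT4, and with quantile normalization from 0.059 for CCT4 to 0.187 for CCT8, so the order of the subunits turned with the scaling. As deposited, the median of the 8 subunits was 0.104, beside a median of 0.211 over the 3992 genes whose mean log2 signal exceeded 8, of 0.232 for the ribosomal proteins and of 0.528 for the heat shock chaperones. The share of those 3992 genes with a smaller standard deviation was 0.2% for CCT5 as deposited, but 12.1% with centred arrays and 16.3% after quantile normalization. For CCT4 it was 3.71%, 39.5% and 2.13% in the same order, and for CCT8 5.91%, 1.28% and 50.2%. For the median subunit it was 4.26%, 14.1% and 15.5%, and among the 1667 genes whose mean log2 signal exceeded 10, a level more like that of CCT, it was 7.56%, 11.8% and 25.9%.

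**Figure D1:**
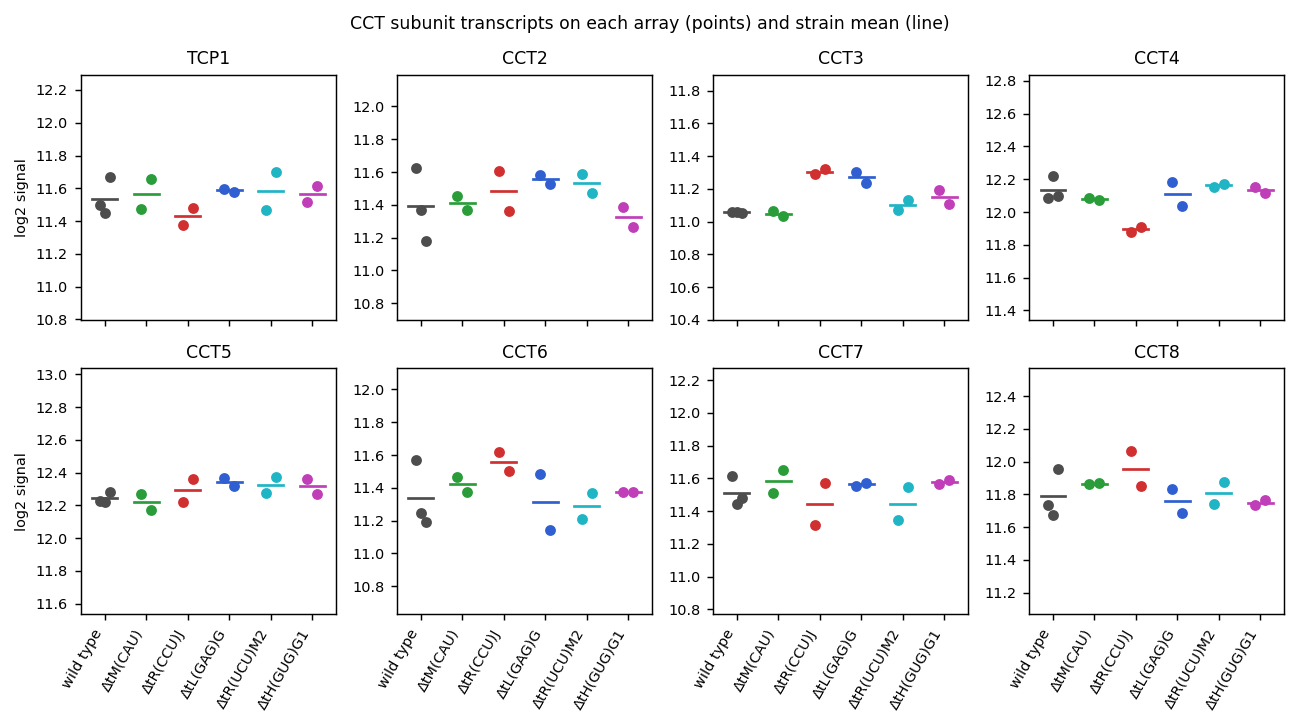
Log2 signal of each CCT subunit on the 13 arrays, by strain (points, arrays; lines, strain means); the vertical axes span the same range of log2 units around each gene's mean. The 3 wild-type arrays of CCT3 lie at 11.05 to 11.06, below both arrays of ΔtR(CCU)J and of ΔtL(GAG)G, and both ΔtR(CCU)J arrays of CCT4 lie below all others.

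CCT3, the gamma subunit, showed the clearest separation by strain. Its log2 signal was 11.06, 11.06 and 11.05 on the wild-type arrays and 11.07 and 11.03 in ΔtM(CAU). It was 11.29 and 11.32 in ΔtR(CCU)J and 11.30 and 11.24 in ΔtL(GAG)G. The MC strains lay between, at 11.07 and 11.13 in ΔtR(UCU)M2 and at 11.19 and 11.11 in ΔtH(GUG)G1. Both arrays of 4 strains, all but ΔtM(CAU), thus lay above the highest wild-type array. In the order of strain means, ΔtM(CAU) and wild type overlapped, so did ΔtR(UCU)M2 and ΔtH(GUG)G1, and so did ΔtL(GAG)G and ΔtR(CCU)J, while these 3 pairs of neighbours did not overlap each other. The log2 difference from wild type was 0.25 (SE 0.09) in ΔtR(CCU)J, a fold of 1.19, with an adjusted p of 0.109 (limma, Benjamini-Hochberg over all genes). In ΔtL(GAG)G it was 0.21 (SE 0.09) with an adjusted p of 0.618 by limma. Neither passed the threshold of 0.05, although the unadjusted p by limma was 0.0249 and 0.0475. CCT3's own standard deviation within strains was 0.035, and the standard error above is larger because limma draws the variance of each gene towards that of all genes. With each array centred on its median the difference in ΔtR(CCU)J was 0.05, and with quantile normalization it was 0.29.

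CCT4, the delta subunit, was the member with the largest negative difference. Its log2 signal was 12.09, 12.22 and 12.10 in wild type, 12.08 and 12.07 in ΔtM(CAU), and 12.18 and 12.04 in ΔtL(GAG)G. In ΔtR(CCU)J it was 11.88 and 11.91, the lowest pair of all arrays and apart from every other strain. The MC strains had 12.15 and 12.17 in ΔtR(UCU)M2 and 12.15 and 12.12 in ΔtH(GUG)G1, within the wild-type range. Of the neighbours in the order of its strain means, only ΔtR(CCU)J and the next strain, ΔtM(CAU), did not overlap. The log2 difference between ΔtR(CCU)J and wild type was -0.24 (SE 0.10, unadjusted p = 0.0382, adjusted p = 0.135, limma), which did not pass. It was -0.44 with each array centred on its median (adjusted p = 0.0615, limma) and -0.05 with quantile normalization.

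CCT3 and CCT4 thus had differences of opposite sign in ΔtR(CCU)J, subunits of a complex in which each is present once per ring. The gap between their log2 signals does not depend on centring, because such a shift is common to both genes. Quantile normalization is not such a shift and can change the gap. Under it, as given above, the CCT4 difference was much smaller and that of CCT3 somewhat larger than as deposited. With the deposited scaling and relative to its wild-type mean, this gap was 0.49 on each of the ΔtR(CCU)J arrays. It was 0.20 and 0.28 in ΔtL(GAG)G, 0.12 and 0.07 in ΔtH(GUG)G1, and between -0.08 and 0.06 on the remaining arrays, wild type included. The pair was chosen after its values were seen, so no test is given. Against the wild-type array that each ΔtR(CCU)J array most resembled, the difference was 0.23 and 0.27 for CCT3 and -0.21 and -0.18 for CCT4.

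CCT5, the epsilon subunit, was at 12.23, 12.22 and 12.28 in wild type and at 12.37 and 12.32 in ΔtL(GAG)G, so that both of these arrays lay above all of wild type. The other strains had 12.27 and 12.17 in ΔtM(CAU), 12.22 and 12.36 in ΔtR(CCU)J, 12.28 and 12.37 in ΔtR(UCU)M2, and 12.36 and 12.27 in ΔtH(GUG)G1. These overlapped with wild type. The difference of 0.10 (SE 0.10) in ΔtL(GAG)G had an adjusted p of 0.769 by limma.

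CCT6, the zeta subunit, had the widest scatter with the deposited scaling, though not with the others. Its log2 signal was 11.57, 11.24 and 11.19 on the wild-type arrays, 11.62 and 11.50 in ΔtR(CCU)J, and 11.49 and 11.14 in ΔtL(GAG)G. It was 11.47 and 11.38 in ΔtM(CAU), 11.21 and 11.37 in ΔtR(UCU)M2, and 11.37 on both arrays of ΔtH(GUG)G1. No strain was apart from wild type, since wild-type replicate 1 was higher than every deletion array but the first of ΔtR(CCU)J. The largest difference from wild type, 0.22 (SE 0.15) in ΔtR(CCU)J, had an adjusted p of 0.335 by limma and an interval of -0.11 to 0.56. TCP1, CCT2, CCT7 and CCT8, the alpha, beta, eta and theta subunits, overlapped with wild type in every strain, and all neighbours in the order of their strain means overlapped.

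No CCT subunit was called in any of the 5 deletion strains against wild type at an adjusted p under 0.05 (limma), and 3 of the 40 differences had an unadjusted p under 0.05, namely those of CCT3 and CCT4 in ΔtR(CCU)J and of CCT3 in ΔtL(GAG)G. The differences ran from -0.24 to 0.25 on the log2 scale. The 95% intervals, which are not adjusted for the number of genes, reached at most 0.56 upwards (CCT6 in ΔtR(CCU)J, a fold of 1.47) and -0.47 downwards (CCT4 in the same strain, 1.38-fold lower). The 5 comparisons share the same 3 wild-type arrays, so a wild-type array that is high or low enters all of them.

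These counts stand beside the background of all 5446 genes. In ΔtR(CCU)J 8.56% of all genes were called in either direction, against 0 of 8 subunits. With 8 genes, a count of 0 does not set CCT apart from that share. In ΔtM(CAU) 0.0367% of genes were called, in ΔtL(GAG)G 0.0551%, and 0% in both MC strains, so that a count of 0 subunits is near the background there. The unadjusted p by limma was under 0.05 for 1727 genes in ΔtR(CCU)J, 118 in ΔtM(CAU), 432 in ΔtL(GAG)G, 95 in ΔtH(GUG)G1 and 72 in ΔtR(UCU)M2.

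Without a test, both arrays of ΔtM(CAU) lay below all wild-type arrays for 1 subunit, CCT4, beside 6.04% of all genes, and above them for 0 subunits, beside 13.6%. In ΔtR(CCU)J 1 subunit, CCT3, lay above, beside 31.6% of all genes, and 1, CCT4, lay below, beside 12.5%. In ΔtL(GAG)G CCT3 and CCT5 lay above, beside 15.7% of genes, and 0 lay below, beside 10.8%. In ΔtR(UCU)M2 CCT3 was the 1 subunit above, beside 4.13%, with 0 below, beside 5.93%. In ΔtH(GUG)G1 CCT3 was again the 1 above, beside 5.14%, with 0 below, beside 4.46%. Counts of 0 to 2 among 8 subunits do not set CCT apart from these shares.

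The median log2 difference of the 8 subunits from wild type was 0.07 in ΔtR(CCU)J, 0.03 in ΔtM(CAU), 0.05 in ΔtL(GAG)G, 0.03 in ΔtH(GUG)G1 and 0.04 in ΔtR(UCU)M2. Over all genes the median was 0.17, 0.07, 0.05, -0.01 and -0.03 in the same order, so with the deposited scaling the typical gene of ΔtR(CCU)J had a higher value than in wild type. Relative to that shift the subunits' median lay 0.10 lower in ΔtR(CCU)J and 0.06 higher in ΔtR(UCU)M2. Only 2 of the 8 subunits in ΔtR(CCU)J had a difference above that of the median gene, namely CCT3 and CCT6.

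**Figure D2:**
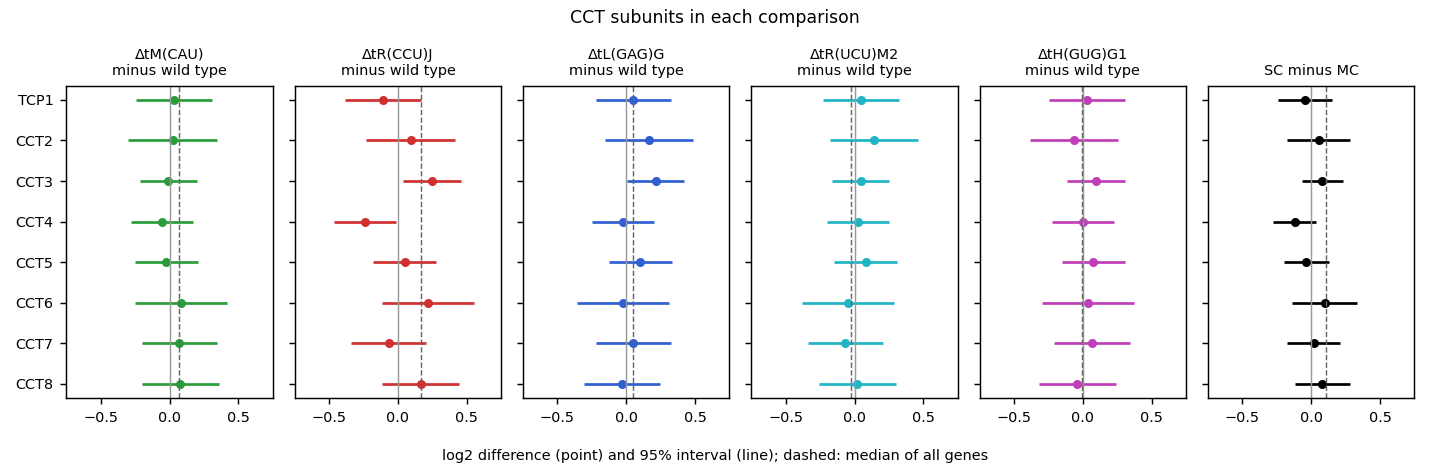
Log2 difference of each CCT subunit in the 6 comparisons, with its 95% interval (limma, not adjusted for the number of genes); the grey line marks 0 and the dashed line the median of all 5446 genes. In 37 of the 40 comparisons with wild type the interval includes 0, and between the SC and MC strains all 8 do.

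The SC and MC strains were then compared, as the mean of the 3 SC strain means against the mean of the 2 MC strain means. The standard errors, intervals and p-values of this comparison come from the spread between arrays of a strain. They do not measure the spread between the strains of a group. With the strain as a random block, 4 of all 5446 genes were called (limma). Among them were 0 subunits, 0 heat shock chaperones and 0 ribosomal proteins. The largest positive difference was that of CCT6, at 0.10 (SE 0.11), and the largest negative one that of CCT4, at -0.12 (SE 0.07, adjusted p = 0.269, limma). All 8 subunits had arrays of the SC and MC strains that overlapped, 0 lay fully higher, beside 5.47% of all genes, and 0 fully lower, beside 2.15%. None was called, beside 0.22% of all genes, and none had an unadjusted p under 0.05 by limma, beside 1617 of the 5446 genes. The median of the subunits was 0.04, with 5 positive, and that of all genes 0.11, with 65.5% positive. The intervals of all 8 included 0 and lay between -0.28 and 0.34, or 1.26-fold at the widest, with the deposited scaling. The sign of these small values followed the scaling. With each array centred on its median 0 of 8 subunits were positive and their median was -0.11, and with quantile normalization 6 were positive and their median was 0.10, with 0 called under either.

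The comparison lists gave other values. The heat shock chaperones, 18 genes of the Hsp70, Hsp90, Hsp104 and small heat shock protein systems, had a median of 0.74 between the SC and MC strains, and 15 were positive. HSP104, the disaggregase, had 1.36 (SE 0.27), SSA4, a stress-induced Hsp70, 1.29 (SE 0.23), SIS1, an Hsp40, 1.13 (SE 0.21), and HSP42, a small heat shock protein, 1.06 (SE 0.31). In this list 10 genes were higher with an unadjusted p under 0.05, beside 1136 of all 5446 genes. Of the 18, 0 were called, the smallest adjusted p being 0.0505 (limma). With the replicate number as a block 3 of the 18 were called, beside 57 of all genes. Without the second ΔtH(GUG)G1 array 6 were, beside 649. With quantile normalization 0 were, beside 35 of all genes, and with the most similar wild-type array as a block 0 were, beside 8. Of the cytosolic ribosomal proteins, 126 of 127 measured were negative, with a median of -0.35. Of these 122 had an unadjusted p under 0.05, beside 481 of all genes that were lower, and 0 were called (limma). With a trended and robust prior 29 were called, beside 354 of all genes. Without the second ΔtH(GUG)G1 array 80 were, beside 649. RPL22B had -0.40, RPL15A -0.42 and RPS15 -0.38, each with a standard error of 0.10 to 0.11. After quantile normalization the ribosomal proteins had a median of -0.02, whereas the heat shock chaperones had 0.71. This scaling gives every array the same set of values. Under it the ribosomal protein median also lay between -0.02 and 0.01 in each strain against wild type. Whether it could show a shift of such a list was not tested.

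The ribosome-bound chaperones, which receive the nascent chain before CCT does, had a median of -0.24 between the SC and MC strains. Of 7 genes 6 were negative, 5 of them with an unadjusted p under 0.05, beside 481 of all genes that were lower, and 0 called (limma). SSB2 had -0.42 (SE 0.15) and SSB1 -0.34 (SE 0.10), the Hsp70 pair of the ribosome, and EGD1, a subunit of the nascent chain complex, -0.34 (SE 0.12). This median was 0.00 after quantile normalization. Of the genes that act with CCT itself, prefoldin, which hands actin and tubulin to CCT, and the phosducin-like cofactor PLP2 had a median of -0.04 over 7 genes, of which 0 were called and 3 were positive. PLP2 had the largest difference, 0.22 (SE 0.10, adjusted p = 0.181, limma). The 7 CCT substrates had a median of 0.12. The tubulins TUB1, TUB2 and TUB3 had 0.14, 0.13 and 0.16, whereas actin, ACT1, had -0.29 (SE 0.09, adjusted p = 0.0794, limma), and 0 of 7 were called. HSP60, of the mitochondrial chaperonin, had 0.41 (SE 0.19), and its partner HSP10 had -0.09 (SE 0.10), neither called.

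In ΔtR(CCU)J, the strain with most calls, the prefoldin and substrate lists likewise had 0 called. The heat shock chaperones had a median of 0.56 against wild type, with 1 of 18 genes called higher, SSE2, an Hsp110, at 0.96 (SE 0.21, adjusted p = 0.0289, limma). The ribosomal proteins had -0.41, with 4 of 127 called lower, among them RPL22B at -0.76 (SE 0.15, adjusted p = 0.0229) and RPL6B at -0.56 (SE 0.13, adjusted p = 0.0357, limma). Of the ribosomal proteins 126 were lower, 102 of them with an unadjusted p under 0.05 by limma, beside 489 of all 5446 genes. Below all wild-type arrays lay 103 of them, beside 12.5% of all genes. Of the heat shock chaperones 15 were higher, 5 with an unadjusted p under 0.05 by limma, beside 1238 of all genes. Above all wild-type arrays lay 4, beside 31.6%. The shares called, 1 of 18 and 4 of 127, are below the 8.56% of all genes called in this strain. Both were 0 without the first ΔtR(CCU)J array and in a fit of the compared strains, and the ribosomal protein median was -0.02 after quantile normalization. For the heat shock list the medians in the other strains were 0.58 in ΔtM(CAU), 0.24 in ΔtL(GAG)G, -0.14 in ΔtH(GUG)G1 and -0.17 in ΔtR(UCU)M2, and for the ribosomal proteins -0.23, -0.22, -0.01 and 0.15. The heat shock medians moved when single arrays were left out. Without wild-type replicate 2 they were 0.12 in ΔtR(CCU)J, 0.28 in ΔtM(CAU) and -0.01 in ΔtL(GAG)G, and -0.30 in ΔtH(GUG)G1 and -0.35 in ΔtR(UCU)M2. Without wild-type replicate 3 they were 0.07 and 0.01 in the last 2 strains. In ΔtM(CAU) and ΔtR(CCU)J the median stayed positive with any 1 wild-type array left out. Deletion arrays also moved it. Without the strain's first array it was 0.15 in ΔtH(GUG)G1 and 0.09 in ΔtR(UCU)M2, and without the second -0.35 and -0.37. In ΔtM(CAU) it was 0.64 without the first array and 0.24 without the second. For the ribosomal proteins, the median without wild-type replicate 2 was -0.14 in ΔtM(CAU), -0.13 in ΔtL(GAG)G and 0.07 in ΔtH(GUG)G1, and without replicate 1 it was 0.05 in ΔtR(UCU)M2. Beside these stand the subunits' medians of 0.03 to 0.07 in all 5 strains, which with each array centred on its median were -0.13, -0.06 and -0.01 in the SC strains ΔtR(CCU)J, ΔtM(CAU) and ΔtL(GAG)G and 0.05 and 0.09 in the MC strains ΔtH(GUG)G1 and ΔtR(UCU)M2. The differences between lists were not tested. With the most similar wild-type array as a block, the heat shock median was 0.25 between the SC and MC strains. It was 0.17 in ΔtR(CCU)J, 0.26 in ΔtM(CAU), -0.03 in ΔtL(GAG)G, -0.07 in ΔtH(GUG)G1 and -0.10 in ΔtR(UCU)M2. The ribosomal protein median was then -0.17 between the SC and MC strains, and -0.32, -0.13, -0.12, -0.10 and 0.07 in the same order of strains. The part that the likeness of arrays described above has in these values was not tested.

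The list medians also differed between arrays of 1 strain. Wild-type replicate 2 and the first replicates of ΔtH(GUG)G1 and ΔtR(UCU)M2 had heat shock medians of -0.56, -0.59 and -0.57, each relative to all genes of the same array and to each gene's mean over strains, while the other 10 arrays lay between -0.02 and 0.46. HSP82, chosen here after its values were seen, had a log2 signal of 7.79, 7.48 and 7.53 on those 3 arrays and of 9.85 to 11.5 on the others. For the CCT subunits the same 3 arrays gave -0.03, 0.09 and -0.02, and the range over all arrays was -0.14 to 0.10. The lowest value was that of the first ΔtR(CCU)J array, which also had the lowest ribosomal protein median, -0.61. Within the second replicates alone, the SC and MC strains differed by a median of 0.25 for the heat shock chaperones, -0.17 for the ribosomal proteins and -0.02 for the CCT subunits. Within the first replicates the values were 0.93, -0.52 and 0.03.

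**Figure D3:**
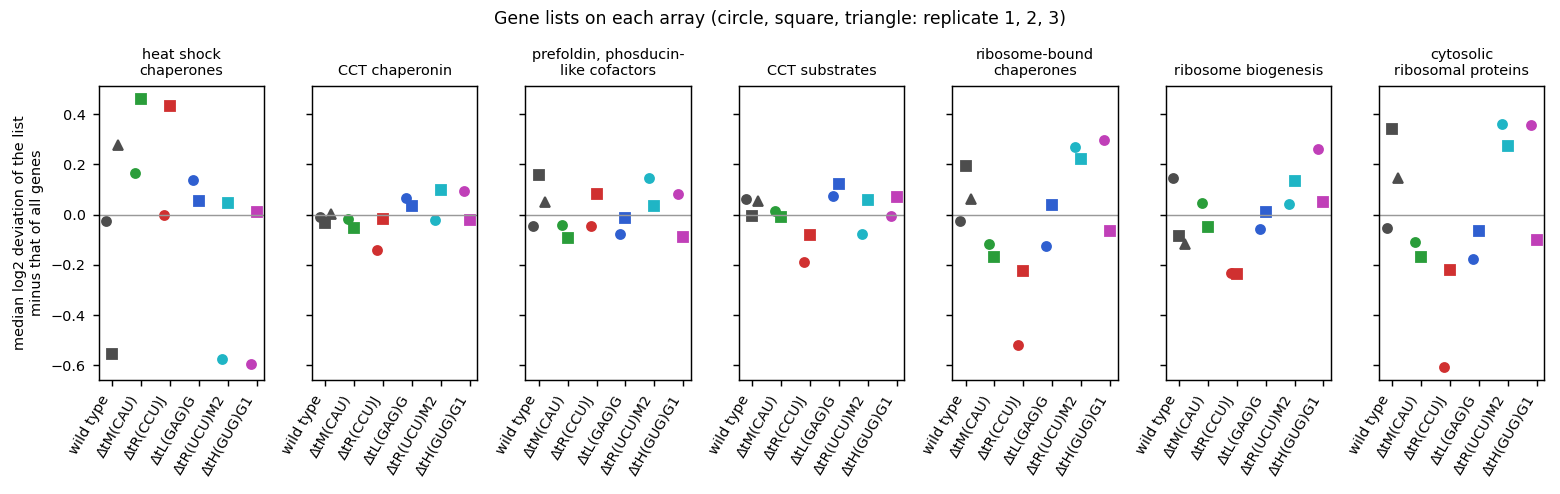
Median log2 deviation of each gene list from the genes' means over strains, minus the same median over all genes, on every array (circle, square and triangle, replicates 1, 2 and 3). The CCT subunits span -0.14 to 0.10, while the heat shock chaperones lie at -0.56, -0.57 and -0.59 on 3 arrays and reach 0.46 on another, and the ribosomal proteins run from -0.61 to 0.36.

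Whether the CCT profile went with the ribosome or with the stress chaperones depended on how the arrays were scaled. The members' profile was the mean of the 8 log2 signals, each scaled to unit standard deviation, over the 13 arrays. With each array centred on its median, its Pearson r was 0.81 with the ribosomal proteins and -0.27 with the heat shock chaperones, whereas after quantile normalization it was -0.67 and 0.81, and with the deposited scaling -0.29 and 0.45. The r with the ribosome-bound chaperones was 0.84, -0.02 and -0.25 in the same order of scalings. That with the ribosome biogenesis genes was 0.84, -0.23 and 0.27. Of the lists compared, the substrates and the mitochondrial chaperonin had a positive r under all 3 scalings, at 0.70, 0.47 and 0.33 for the substrates and at 0.37, 0.59 and 0.15 for HSP60 and HSP10. These values describe 13 arrays of 6 strains that share strain, culture and array scaling, and no p is given.

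The median log2 signal of all genes ran from 8.94 to 9.29 over the arrays, and centring subtracts the median of an array from every gene on it. The log2 signal of a subunit spanned 0.20 (CCT5) to 0.47 (CCT6) over the same arrays. With the centred values, r with the ribosomal proteins was 0.68 without the 2 ΔtR(CCU)J arrays, 0.96 over the 6 strain means and 0.66 for deviations from the strain means. The heat shock chaperones gave -0.36, -0.61 and 0.04 in the same order.

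**Figure D4:**
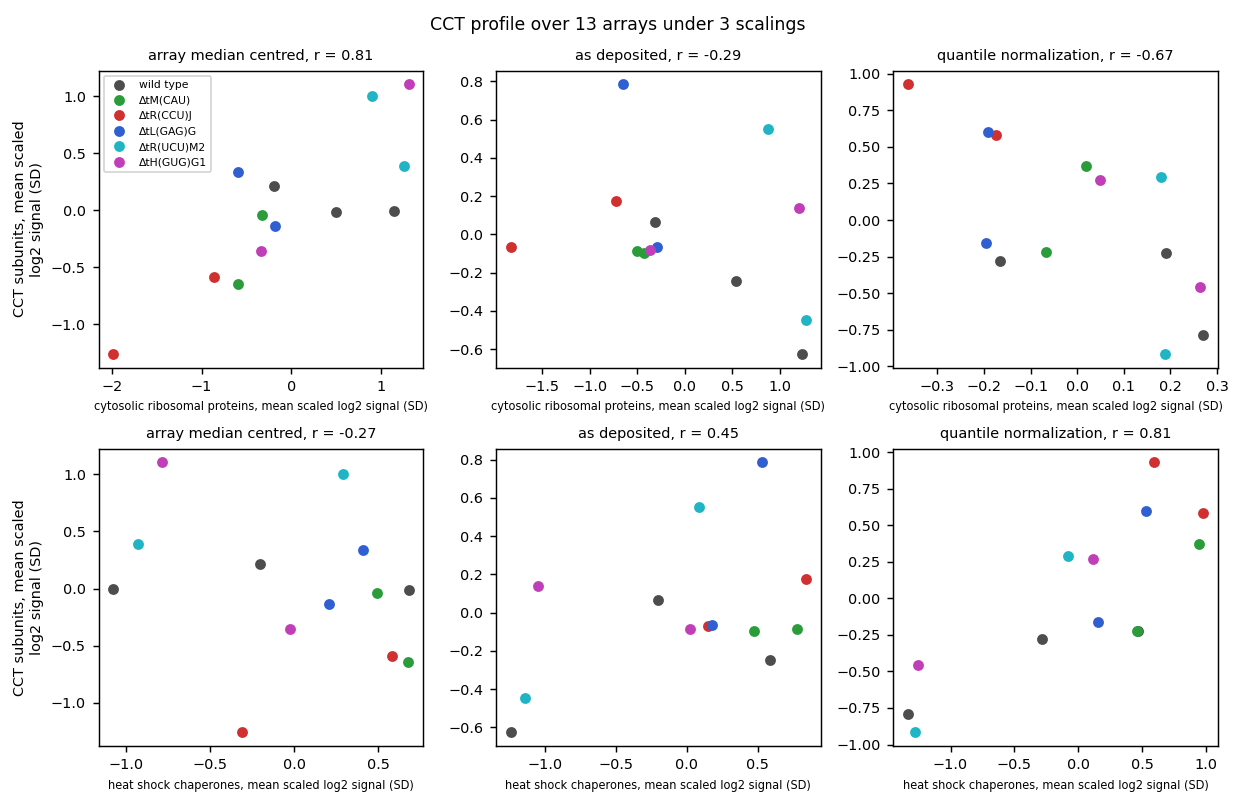
Mean scaled log2 signal of the 8 CCT subunits (vertical axes, in standard deviations) against that of the ribosomal proteins (upper row) and of the heat shock chaperones (lower row) on the 13 arrays, under 3 scalings. The r with the ribosomal proteins is 0.81, -0.29 and -0.67 from left to right, and that with the heat shock chaperones is -0.27, 0.45 and 0.81.

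The subunits did not vary as 1 block either. With each array centred on its median, the r of pairs of subunits over the 13 arrays ran from -0.14 to 0.81 with a median of 0.28, and with the deposited scaling the median was 0.01. TCP1 went with CCT7 (0.81) and with CCT4 (0.80), and CCT5 with CCT4 (0.80). CCT5 had the highest r with the mean of the other 7 subunits, 0.90, and CCT6 and CCT8 had the lowest, 0.16 and 0.19. The genes outside the complex whose centred profile was most like that of the 8 subunits, of 3984 ranked, were NCL1, a tRNA methyltransferase (0.95), YHR020W, a prolyl-tRNA synthetase (0.94), ARO8, an aromatic aminotransferase (0.93), KRS1, the lysyl-tRNA synthetase (0.93), LYS20, a homocitrate synthase (0.92), FPR4, a nuclear prolyl isomerase (0.92), NUG1, a GTPase of ribosome export (0.92), and YDR341C, the cytosolic arginyl-tRNA synthetase (0.92). This ranking used the centred values only.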

How the data were processed

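The sample notes name GCRMA without a version. The article's methods name RMA background adjustment and then "quintile" normalization, read here as quantile normalization. Each deposited value is a linear intensity of 1 probe set. The authors' values had a trimmed mean of about 500 on every array (500.2 to 500.3, 2% trimmed at each end) while their quantiles differed between arrays, so the scaling step is not settled by the sources. Intensities were log2-transformed with no offset. Of 10928 probe sets, 5495 name 1 protein-coding gene of S. cerevisiae and measure 5446 genes; for 47 genes with several, the one with the highest mean was used. Control probe sets, S. pombe probe sets and those naming no gene or several were left out. The background came from 1746 probe sets taken as S. pombe, with a gene symbol that starts in lower case and no S. cerevisiae gene. Names are from the platform annotation and RefSeq.

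One fit with limma 3.58.1 (R 4.3.3) gave all differences, with the 13 arrays in the same model and a mean for each strain, with Benjamini-Hochberg adjustment over all genes, and called under 0.05. The script was tested on simulated data. The labels do not say that cultures were separate beyond "biological rep", and p-values measure the spread between these arrays, whose number limits the precision. Same-numbered deletion arrays deviated together (r of 0.125 to 0.672 in all 10 strain pairs over 3992 genes), so a fit with the number as a block was also made; the pairing is inferred from the data, and wild-type arrays did not pair (r from -0.737 to 0.542). Alternatives were other scalings, filters, priors, an offset of 16, grouping by the wild-type array that each array most resembled, and leaving out arrays. All members are named; of the other lists, the genes with the smallest p in the commoner direction, up to 4 each, and the 8 genes most like the members; PLP2, ACT1, HSP10, SSE2 and HSP82 were chosen after their values were seen. The members and lists were chosen with earlier results of these data known.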

Additional observations from a re-analysis of the deposited data

Results flagged for a closer look

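The log2 signal of CCT6 on the 4 MC arrays was 11.21, 11.37, 11.37 and 11.37. The gap between the lowest, the first ΔtR(UCU)M2 array, and the next took up 0.953 of the whole range. This is past Dixon's limit for 4 samples. Of the 16 groups of arrays examined in this way, the SC and the MC arrays of the 8 subunits, only this 1 was flagged. Chance flags about 1 in 20 such groups.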

How the results depend on the processing

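None of the 8 CCT subunits was called in any of the 6 comparisons under any of the 23 alternatives for a strain or the 27 for the SC and MC strains, and of 1136 subunit values 72 had another sign than the main value, each within its standard error in at least one of the 2 settings. The smallest adjusted p of a subunit (limma) was 0.0546, for CCT3 in ΔtR(CCU)J with the most similar wild-type array as a block. The number of all genes called in ΔtR(CCU)J, 466, was 228 with median centring, 251 with quantile normalization, 1227 with that block and 5 in a fit of the compared strains, and it was 24 without the first ΔtR(CCU)J array. Between the SC and MC strains 12 genes were called, 2 to 649 over the alternatives, with 649 without the second ΔtH(GUG)G1 array.

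The median log2 difference of the subunits moved by more than its standard deviation within strains, 0.04, in these settings, in a range around 0. Median centring gave -0.131 in ΔtR(CCU)J, -0.0567 in ΔtM(CAU), -0.00697 in ΔtL(GAG)G, 0.0892 in ΔtR(UCU)M2 and -0.112 between the SC and MC strains. Quantile normalization gave 0.243 in ΔtR(CCU)J and 0.0959 between the SC and MC strains. With the replicate number as a block the median in ΔtR(CCU)J was 0.0287, and this pairing changed no call of a subunit, while 57 genes in all were then called between the SC and MC strains. The median between the SC and MC strains was -0.0255 with the most similar wild-type array as a block and -0.0244 within the second replicates. Leaving out 1 array at a time gave 0.0161 to 0.0938 in ΔtL(GAG)G, 0.0287 to 0.0954 in ΔtR(CCU)J, and -0.0174 to 0.0776 in ΔtR(UCU)M2, where the lowest is without its second array.

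The r of the subunits' profile with the ribosomal proteins was 0.81 with centred arrays, -0.67 with quantile normalization and -0.29 as deposited. With the heat shock chaperones it was -0.27, 0.81 and 0.45, and 0.0352 for deviations from the strain means. With the ribosome-bound chaperones it was 0.84, -0.021 and -0.25. With centred arrays, leaving out 1 of the 13 at a time gave 0.72 to 0.87 for the ribosomal proteins, -0.41 to -0.098 for the heat shock chaperones and 0.77 to 0.90 for the ribosome-bound chaperones, and this was not run under the other scalings; the cause of the reversals beyond the scaling itself was not tested. With 2 arrays per strain, a 95% interval of a subunit reached 0.148 to 0.334 to either side of its difference. The r with the deposited scaling and without single arrays, the list medians under other settings and the differences from the most similar wild-type array were chosen after seeing the data. The motif search in promoters was not run.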
